A study of Saccharomyces cerevisiae with 91 samples.

Results

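The transcripts described here are the short ORF transcripts of Saccharomyces cerevisiae, the protein-coding rows of the deposited dyad table whose transcription start site (TSS) and transcript end (TTS) lie less than 600 bp apart on the genome. The rule selected 113 of 4536 ORF rows, out of 4963 rows in all. They were set against the 2090 ORF rows of 1000 to 2000 bp, called mid-length transcripts below, and for the course over length also against 786 rows of 600 to under 1000 bp and 1547 rows over 2000 bp. The study reconstituted chromatin on a yeast genomic plasmid library, added the INO80 remodeler with or without other factors and mapped nucleosomes with MNase-seq, the sequencing of nucleosome-sized fragments left by micrococcal nuclease. Of its 91 libraries, 90 are such reconstitutions and 1 is the in vivo map used here, made from the wild type laboratory strain BY4741 grown in log phase in YPD medium. Every dyad position below is the in vivo one, so no remodeler, histone type or DNA-binding factor was compared. The TSS annotation of the study rests on separate transcriptome data of this yeast, and start and stop codons below are those of RefSeq R64. Depth and peak height do not come with the coordinates, and a single library gives no replicate error. Intervals given below (95%) cover only the spread or the counting error over transcripts of this annotation, which are not replicates, and no test was made.

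A nucleosome wraps DNA around a histone octamer, and the centre of the wrapped stretch is its dyad. In yeast promoters a nucleosome-depleted region (NDR) lies between the −1 nucleosome upstream and the +1 nucleosome, which sits just inside the transcribed unit and heads a regular array over the gene. A short gene leaves space for only a few nucleosomes of such an array before the transcript ends, so that its promoter, start codon and 3′ end all fall within a few nucleosomes of each other.

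Sequences of 4 members show where these dyads fall. In the first pair, ATG in capitals is the start codon and the single capital at the end is the base under the +1 dyad, so each run is the coding sequence that lies before that dyad. HSP12, which encodes a lipid-binding stress protein, and FMP43, which encodes a mitochondrial pyruvate carrier subunit, are shown because their +1 dyads lie among the farthest into the coding sequence. HSP12 is at chrVI:107256-107388 and FMP43 at chrVII:977336-977447, both in exons on the plus strand of RefSeq R64.
HSP12: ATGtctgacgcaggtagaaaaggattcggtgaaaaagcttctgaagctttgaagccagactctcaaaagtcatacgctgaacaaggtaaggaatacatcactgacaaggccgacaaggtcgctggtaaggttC
FMP43: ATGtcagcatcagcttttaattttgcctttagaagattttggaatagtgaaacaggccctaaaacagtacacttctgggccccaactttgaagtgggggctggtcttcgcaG

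The second pair shows the DNA from the −1 dyad up to the base before the TSS, outside every other transcript of the table and every protein-coding gene, in a member with 1 of the shortest NDRs and in a histone gene with a typical one. LSM7, a subunit of the Sm-like rings that bind RNA, has 33 bases between its −1 dyad and TSS at chrXIV:350799-350831. HHF2, a histone H4 gene, has 193 bases at chrXIV:576505-576697. Both are on the plus strand, and runs of 6 or more A or T are in capitals.
LSM7: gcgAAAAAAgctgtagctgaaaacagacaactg
HHF2: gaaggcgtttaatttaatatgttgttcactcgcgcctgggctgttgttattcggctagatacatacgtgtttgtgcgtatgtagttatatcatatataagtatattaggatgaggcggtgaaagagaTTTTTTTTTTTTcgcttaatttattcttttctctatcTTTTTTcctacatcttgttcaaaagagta

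Member lengths ran between 505 and 593 bp with a median of 553 bp. The shortest transcript of the whole table also measured 505 bp, so the set ends at the floor of the table and not at the shortest yeast genes. Of 893 R64 protein-coding genes spanning under 500 bp, 316 (35.4%) had a row in the table, against 4400 of all 6002 protein-coding genes (73.3%). Lengths fell on a grid: 109 of 113 were 1 bp over a multiple of 8. The grid limits how finely transcript ends are placed, and the intervals of distances from TSS or TTS do not cover it. At 505 bp stood 6 members, among them YDL160C-A (the histone-fold protein Mhf2), YER053C-A (uncharacterized), STF2 (an ATPase-stabilizing factor), YLR408C (Bls1) and SMA2. Just inside the limit were HHT1, YBR255C-A and YBR285W at 593 bp, with NDRs of 274, 234 and 390 bp and +1 dyads 94, 47 and 168 bp past the TSS. Just outside it were YPT10, FMP21 and TVP15 at 601 bp, with NDRs of 260, 298 and 153 bp and +1 dyads 67, 66 and 59 bp past the TSS.

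The short set held small proteins of many complexes rather than 1 family. The gene lists used here, not all of them of small proteins, held 44 of the 113 members (38.9%). Of all ORF rows 2.49% were this short, and the counts by list are a description, since the rule is one of length. Among RNA-binding Sm and LSm proteins, 5 of 12 rows were below 600 bp, namely LSM3, LSM6, LSM8, LSM2 and LSM7. Of the small redox and ubiquitin-like proteins, 6 of 15 rows were short: the glutaredoxins GRX1 and GRX2, the thioredoxins TRX1 and TRX3, and the protein modifiers RUB1 and URM1. Mitochondrial import subunits gave 4 of 19 rows, the intermembrane space chaperones TIM8, TIM13 and MRS11 (Tim10) and the outer membrane translocase subunit TOM6. Of 8 histone rows HHF2 and HHT1 were short, and of 6 rows of hydrophilins and proteolipids STF2 and HSP12. In contrast, 2 of 126 rows of cytosolic ribosomal protein genes (1.59%) were short, RPS15 and RPP2B.

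**Figure D1:**
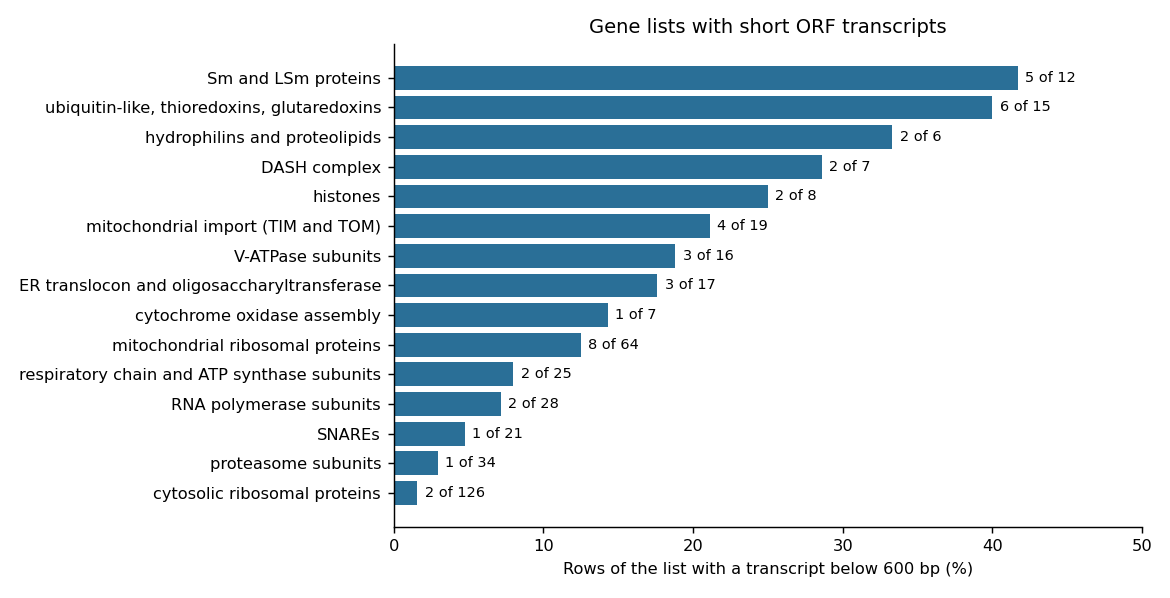
Share of rows with a transcript below 600 bp for each gene list that had at least 1 such row (x axis, percent), with the number of short rows and of all rows beside each bar. Of the lists drawn, Sm and LSm proteins stand at the top with 5 of 12 rows and cytosolic ribosomal proteins at the bottom with 2 of 126; glycolytic enzymes, with 0 of 15, are not drawn.

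Smaller lists contributed single subunits of larger machines. RPC10 and RPB10, subunits shared by all nuclear RNA polymerases, measured 513 and 585 bp, and the kinetochore DASH subunits HSK3 and DAD3 561 and 569 bp. The endoplasmic reticulum proteins SBH1 and SSS1, subunits of the Sec61 translocon, and OST5, of the oligosaccharyltransferase, measured 513, 537 and 586 bp. The vacuolar ATPase subunits VMA9 and VMA7 were both 569 bp long, and VMA22, needed for assembly of that pump, 545 bp. ATP20 and TIM11, subunits g and e of the mitochondrial ATP synthase, measured 513 and 529 bp, the cytochrome oxidase assembly factor PET191 537 bp, the vesicle SNARE SNC1 521 bp and the proteasome lid subunit SEM1 561 bp. IES4, a subunit of INO80 itself, had a transcript of 561 bp, an NDR of 289 bp and a +1 dyad 36 bp past its TSS. By its R64 product, 12 of 111 matched members (10.8%) were mitochondrial ribosomal proteins, against 23 of 2040 mid-length rows (1.13%), a count of products made after the files were seen. Evidence for a mitochondrial location was annotated for 29 of 111 members (26.1%) and for 402 of 2040 mid-length rows (19.7%), beside 20% of all ORF rows. The difference from mid-length rows was 6.42 percentage points (95% interval -1.07 to 15.4). Coding length, which the rule bounds, was 336 bp in the median member.

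**Figure D2:**
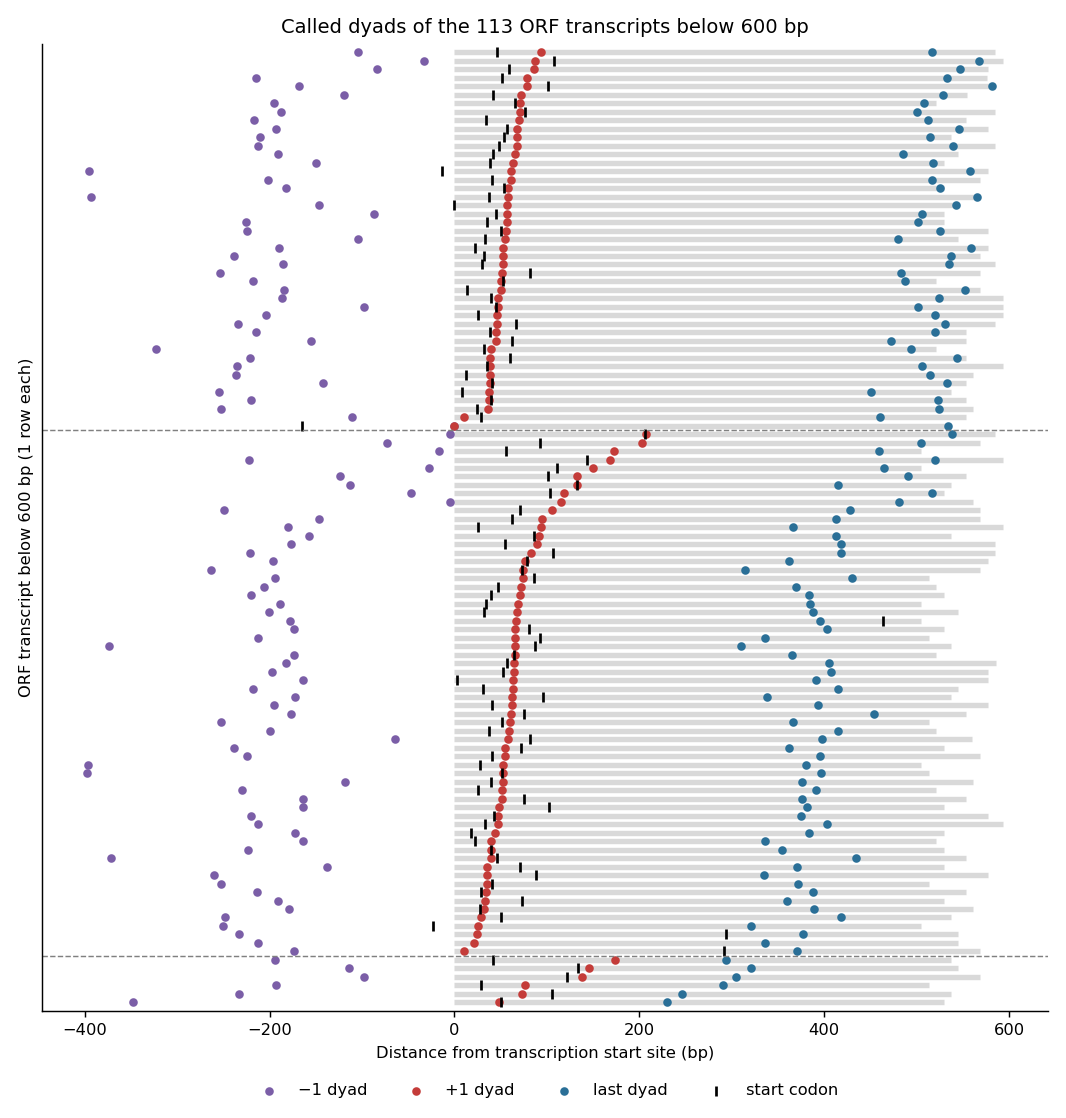
Called dyads of the 113 short ORF transcripts, 1 row each, as distance from the TSS in bp. Grey bars run from TSS to TTS, purple points are −1 dyads, red points +1 dyads, blue points last dyads and black ticks start codons; dashed lines part the 45 transcripts with 3 steps of about 160 bp from +1 to last dyad (top), the 62 with 2 steps and the 6 with 1 step (bottom).

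At the promoter the short transcripts were close to the mid-length ones. The median NDR length, from −1 to +1 dyad, was 259 bp (95% interval 248 to 268, n = 113) in short and 265 bp (263 to 267, n = 2064) in mid-length transcripts, a difference of -6 bp whose interval ran from -15.65 to 3.65 bp. The median distance from TSS to +1 dyad was 59 bp in short and 55 bp in mid-length transcripts, a difference of 4 bp (-1.29 to 9.29). The −1 dyad lay nearer the TSS in short transcripts, at a median position of -194 bp against -210 bp, and the interval of this difference of 16 bp (2.34 to 29.66) did not include 0. NDRs under 150 bp were found in 7 members (6.19%) beside 6.47% of all ORF rows, and NDRs over 350 bp in 11 (9.73%) beside 12.8% of all ORF rows.

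**Figure D3:**
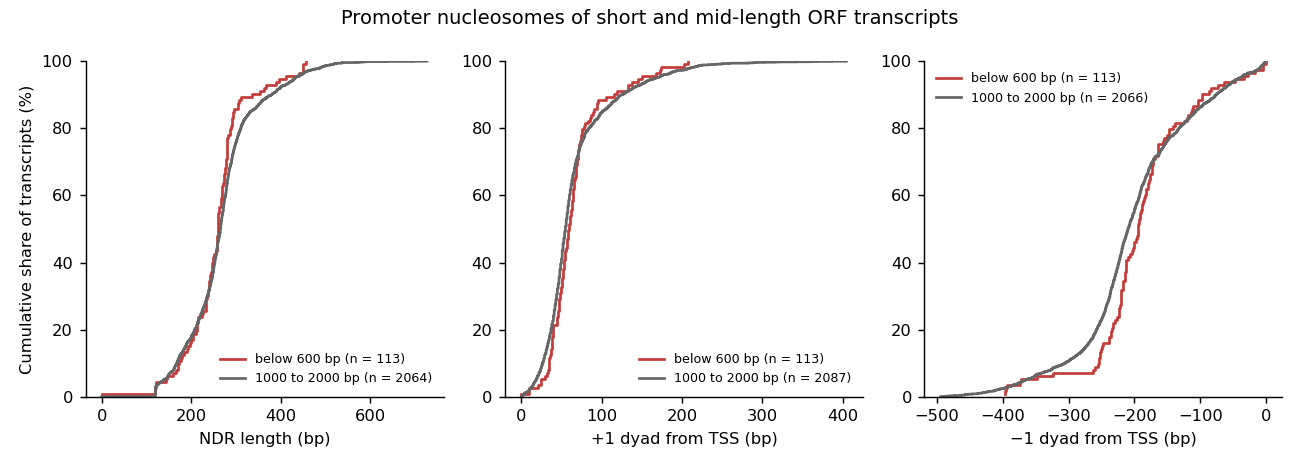
Cumulative share of transcripts (y axis, percent) by NDR length, by the distance of the +1 dyad and by the distance of the −1 dyad from the TSS (x axes, bp), for transcripts below 600 bp (red) and of 1000 to 2000 bp (grey). The curves nearly overlie for NDR length and the +1 dyad (medians 259 and 265 bp, 59 and 55 bp), while the −1 dyads of the short transcripts lie nearer the TSS (medians -194 and -210 bp).

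Individual members spread far more than the medians of the groups. The longest NDRs were those of YNL122C, a mitochondrial ribosomal protein gene, at 456 bp, DAD3 at 451 bp, and YDL160C-A and SBH1 at 449 bp each. In these 4 the +1 dyad was 61, 58, 53 and 52 bp from the TSS, and the −1 dyad lay 395, 393, 396 and 397 bp upstream. All 4 had a tandem neighbour upstream, transcribed in the same direction, as had 46 of 111 members and 2084 of 4409 ORF rows. The next longest NDRs, those of CWP2 at 440 bp and MRS11 at 411 bp, had a divergent neighbour. At the short end, LSM7 and the combined row of YJL047C-A and SNR60, a small nucleolar RNA gene, had NDRs of 120 bp, the smallest distance that the exclusion zone of the dyad caller allowed, and YJL144W (Roq1) and YNL024C-A (Ksh1) had 121 and 122 bp. One row, YOR011W-A, listed the same base as TSS, +1 dyad and −1 dyad and so had an NDR length of 0, while its second +1 coordinate lay 194 bp downstream. A length of 0 is below what the caller allowed, yet the row is counted among the 7 NDRs under 150 bp.

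The +1 dyad lay over 100 bp past the TSS in 13 members (11.5%), beside 14% of all ORF rows. GON7, a subunit of the tRNA-modifying KEOPS complex, had the most distant one at 207 bp, followed by FMP43 at 203 bp, HSP12 at 174 bp and YER053C-A at 173 bp. With these 13 the −1 dyad was also nearer in the median, at a position of -98 bp, and the NDR had a median length of 246 bp. The single NDRs ranged from 120 to 390 bp, so the distance between the dyads was not constant. In HSP12, ELF1 and YBR285W the −1 dyad still lay 194, 249 and 222 bp upstream of the TSS. The −1 dyad is by definition the next one upstream of the +1 dyad, so these positions are not independent. The nearest +1 dyads were those of YOR011W-A at 0 bp, YIL046W-A and YJL144W at 10 bp each and the combined row of IKI3 and SWC7 at 21 bp. The second +1 coordinate of the table lay within 20 bp of the first in 84 of 113 members (74.3%), beside 76.1% of all ORF rows. It differed most in YOR011W-A (0 and 194 bp from the TSS), YBR285W (168 and 12 bp), CWP2 (66 and 205 bp) and YJL144W (10 and 141 bp).

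The position of the +1 nucleosome relative to the start codon differed between the groups, with intervals of the difference above 0. The +1 dyad lay at or past the first base of the start codon in 77 of 111 short transcripts, 69.4% (95% Wilson interval 60.3 to 77.2), and in 955 of 2037 mid-length transcripts, 46.9% (44.7 to 49.1). The difference was 22.5 percentage points (13.1 to 30.6), and the share over all ORF rows was 44%. The start codon fell within 73 bp of the +1 dyad, that is within the core of that nucleosome, in 103 of 111 short transcripts (92.8%) and in 1506 of 2037 mid-length ones (73.9%), a difference of 18.9 points (12.2 to 22.9), beside 72.4% of all ORF rows.

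The start codon also stood nearer the TSS in the short set. It lay a median of 50 bp (41 to 56) past the TSS in short and 65.5 bp (63 to 69) in mid-length transcripts, a difference of -15.5 bp (-23.1 to -7.9). Transcript length includes the 5′ leader, so the rule itself limits leader length in the short set, and its part in the difference was not tested. Over the 4 length classes, from short to long, the share of +1 dyads at or past the start codon was 69.4, 57.6, 46.9 and 31% and the share of start codons inside the +1 core 92.8, 86.5, 73.9 and 61.3%. The median start codon lay 50, 55, 65.5 and 94 bp past the TSS in these classes, against 59, 57, 55 and 51 bp for the +1 dyad. The 2 series cross between the class of 600 to under 1000 bp and that of 1000 to 2000 bp. At the 3′ end, the stop codon lay a median of 120 bp before the TTS in short and 119.5 bp in mid-length transcripts (difference 0.5 bp, -18.27 to 19.27).

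**Figure D4:**
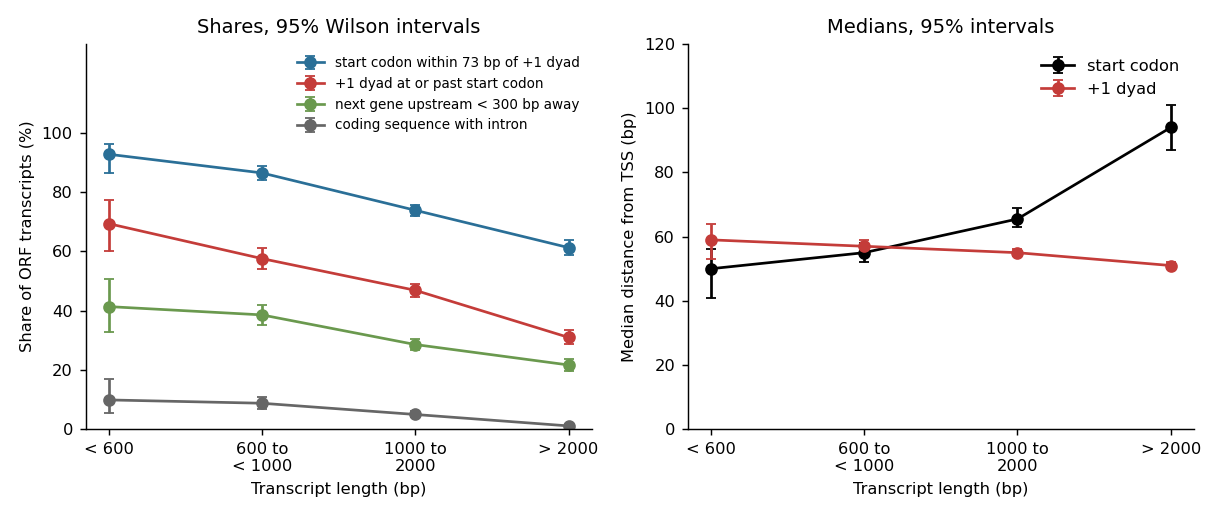
Left, share of ORF transcripts (percent, with 95% Wilson intervals) in 4 classes of transcript length with the start codon within 73 bp of the +1 dyad, with the +1 dyad at or past the start codon, with the next gene upstream under 300 bp away, and with an intron in the coding sequence. Right, median distance (bp, with 95% intervals) of the start codon and of the +1 dyad from the TSS; the start codon median goes from 50 bp in the shortest class to 94 bp in the longest, the +1 median from 59 to 51 bp.

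Among members the median +1 dyad was 11 bp past the start codon, against -5 bp, that is 5 bp before it, in mid-length transcripts. The +1 dyads farthest past the start codon were those of YOR011W-A at 165 bp, HSP12 at 132 bp, YER053C-A at 117 bp and FMP43 at 111 bp. The coding sequence of YER053C-A is only 114 bp long, so its +1 dyad lay past the stop codon. YOR011W-A is annotated with a start codon 165 bp before its mapped TSS. In HSP12 the leader was 42 bp long and the +1 dyad 174 bp from the TSS, so the whole start of the gene printed above lies upstream of the +1 dyad. PET191 had its +1 dyad exactly on the first base of the start codon, 133 bp past the TSS. Both histone members had +1 dyads inside the coding sequence, HHT1 (histone H3) by 68 bp and HHF2 (histone H4) by 47 bp. At the other side stood YIL046W-A and YBL039W-B, with start codons 292 and 294 bp past the TSS and +1 dyads at 10 and 24 bp.

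The room from the +1 dyad to the TTS is bounded by the length rule and was 491 bp in the median member, between 332 and 559 bp. The smallest rooms belonged to YER053C-A (332 bp), STF2 (355 bp), HSP12 (363 bp) and FMP43 (366 bp), 3 of which were also among the 4 with the most distant +1 dyads. YIL046W-A (559 bp), TRM112 (555 bp), an activator of methyltransferases, YNL162W-A (547 bp) and YBR255C-A (546 bp) had the largest rooms. Both transcript ends were labelled as mapped in 108 of 113 members (95.6%), beside 95.9% of all ORF rows, but not in YIL046W-A. Its room is thus less certain. At a spacing of 160 bp, 71 members had room for 3 further dyads before the TTS and 42 for 2. None had room for fewer than 2 or more than 3.

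The table also lists a last dyad for each transcript, always at or before the TTS, and its distance from the +1 dyad fell into separate clusters. It was 300 to under 360 bp in 45 members and 420 to under 540 bp in 44, with 7 in between and the others below 300 bp. Rounded to steps of 160 bp, 62 members (54.9%) were 2 steps long with a median of 328 bp, 45 (39.8%) were 3 steps long with a median of 468 bp, and 6 (5.31%) were 1 step long. A step, which the rounding bounds, measured a median of 164 bp in the 2-step and 156 bp in the 3-step members. What was left behind the last dyad is the room less this distance, so it follows from the split and is not a further difference. It was a median of 33 bp to the TTS with 3 steps, 156.5 bp with 2 steps and 254 bp with 1 step.

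The number of steps is limited by the room, since the last dyad never lies past the TTS and 3 steps take more room than 2, so its counts by room are a description. With 320 to under 440 bp of room, 0 of 15 members had 3 steps, with 480 to under 500 bp 9 of 22 (40.9%), and with 520 to under 560 bp 12 of 20 (60%). Members with 2 steps included YIL046W-A, which had the largest room, with 559 bp of room and a last dyad 361 bp from the +1 dyad. Conversely DAD3, with 511 bp, had its last dyad 507 bp from the +1 dyad and 4 bp from the TTS, and VMA22 had it 3 bp from the TTS. The 6 members with 1 step were SSS1, HHF2, YBL028C, YJR085C, LSM8 and HSP12, and in HSP12 the 2 dyads were 120 bp apart, again the smallest distance the caller allowed. Over all members the last dyad lay a median of 110 bp before the TTS, against 108 bp in mid-length transcripts (difference 2 bp, -27.07 to 31.07).

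**Figure D5:**
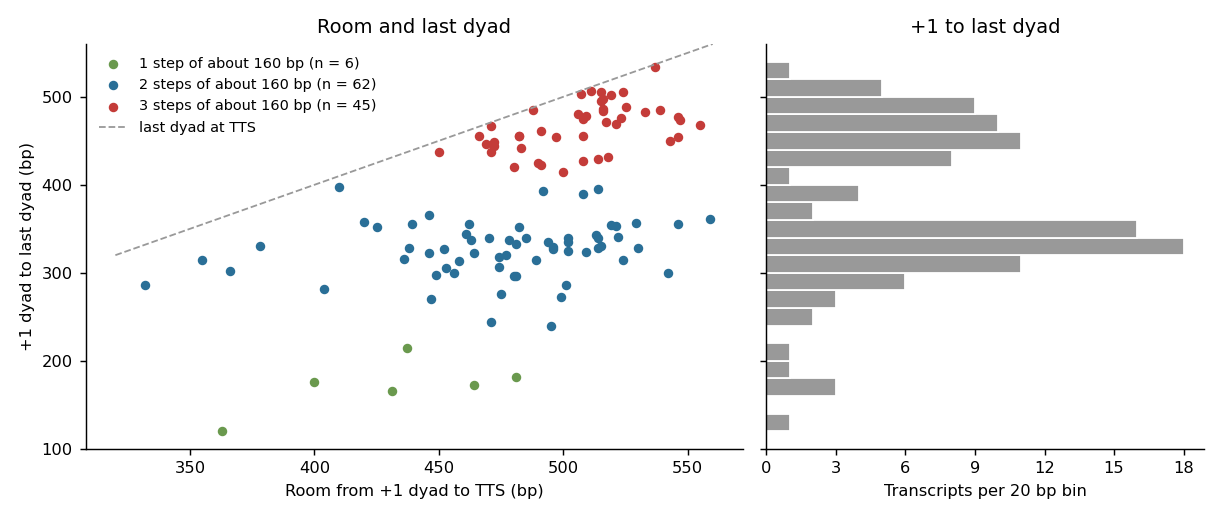
Left, distance from the +1 dyad to the last dyad (y axis, bp) against the room from the +1 dyad to the TTS (x axis, bp) for the 113 short ORF transcripts, coloured by the number of steps of about 160 bp; the dashed line marks a last dyad at the TTS. Right, number of transcripts per 20 bp of the same distance, with a group of 45 at 300 to under 360 bp, a group of 44 at 420 to under 540 bp and 7 in between.

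Members of 1 family could have different numbers of steps. Of the 12 mitochondrial ribosomal protein members 7 had 3 steps and 5 had 2, and 10 had a divergent promoter. Their +1 dyads lay within a narrow range, 34 to 61 bp past the TSS with a median of 54 bp, while NDR length ranged from 145 bp in MRPL28 to 456 bp in YNL122C with a median of 265 bp. MRPL50, the shortest of them at 521 bp, had 2 steps and MRPL28, the longest at 593 bp, 3. The 5 LSM genes had +1 dyads at 66 bp (LSM3), 68 bp (LSM6), 138 bp (LSM8), 71 bp (LSM2) and 87 bp (LSM7), all beyond the median of 59 bp over the members. Their last dyads lay 270, 320, 166, 429 and 480 bp further downstream. RPS15 and RPP2B, of the cytosolic ribosome, had NDRs of 200 and 295 bp and +1 dyads 45 and 35 bp past the TSS.

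Short transcripts had closer neighbours upstream than mid-length ones, as had the next longer class. The next protein-coding gene upstream lay under 300 bp from the member's own annotated gene, overlaps included, in 46 of 111 short transcripts (41.4%) and in 582 of 2038 mid-length ones (28.6%), a difference of 12.9 points (3.93 to 22.4), beside 28.3% of all ORF rows. It did so in 299 of 774 rows of 600 to under 1000 bp (38.6%) and in 322 of 1486 rows over 2000 bp (21.7%). The gap contains the 5′ leader, which the length rule limits in the short set, and the part of the leader in the difference was not tested. A promoter was called divergent where the next protein-coding gene upstream was on the other strand, at any distance. Not all of these are shared promoters: the gap was 2581 bp in ELF1. Divergent promoters made up 65 of 111 (58.6%) in short and 1071 of 2038 (52.6%) in mid-length transcripts, beside 52.7% of all ORF rows. The difference of 6.01 points (-3.54 to 15) included 0, and with neighbours taken from the rows of the table it was -0.683 points (-10.1 to 8.44), of the other sign. At the 3′ end, 69 of 111 short transcripts (62.2%) faced a convergent gene, beside 56.3% of all ORF rows. This was 4.42 points more than in the mid-length ones, with an interval that included 0 (-5.11 to 13.2).

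Divergent and tandem promoters of members had similar centres and unequal spreads. NDR length had a median of 257 bp with quartiles of 238 and 279 bp at the 65 divergent promoters, and 264.5 bp with quartiles of 195 and 290.5 bp at the 46 tandem ones. The tandem ones include YOR011W-A at 0 bp, and no interval was made for the spreads. In mid-length rows the spreads were closer, with quartiles of 222 and 294 bp at divergent and 225 and 304 bp at tandem promoters. In 36 of 113 members (31.9%) the −1 dyad was at the same time the +1 dyad of another row, against 25.6% of mid-length rows (difference 6.3 points, -1.8 to 15.6), beside 25.9% of all ORF rows. Those 36, which include YOR011W-A at 0 bp, had a median NDR of 253 bp and none above 305 bp. The other 77 had a median of 263 bp and reached 456 bp. Mid-length rows went the other way, with a median of 274 bp in the 528 with such a shared dyad, which reached 587 bp, and 259 bp in the other 1536. The −1 dyad of 25 members (22.1%) was the last dyad of another transcript, beside 24.2% of all ORF rows, and the last dyad of 19 members (16.8%) was the −1 dyad of another row, beside 23.4%. A +1 or −1 dyad called for another row lay between the own +1 dyad and the TTS in 20 members (17.7%), beside 24.3% of all ORF rows, and the difference from mid-length rows was -6.47 points (-12.7 to 1.79). The stretch searched is bounded by the length rule, with a median of 491 bp in short and 1373 bp in mid-length transcripts. These shares are therefore a description and not a like comparison.

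Introns were annotated in the coding sequence of 11 of 111 members (9.91%) and of 102 of 2040 mid-length rows (5%), a difference of 4.91 points (0.501 to 11.9), beside 4.49% of all ORF rows. The share was close to that of members in rows of 600 to under 1000 bp, 68 of 774 (8.79%), and was 17 of 1486 (1.14%) over 2000 bp. The members with introns were SNC1, RUB1, PCC1, YSF3, VMA9, YOS1, LSM2, GIM4, OST5, YBR255C-A and LSM7, and length on the genome counts the intron. Without cytosolic ribosomal protein genes, many of which carry introns, the difference from mid-length rows was 7.61 points. Members with an intron had a median coding length of 267 bp, against 346.5 bp in those without, and +1 dyads a median of 68 bp and 58 bp past the TSS.

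Base composition and short motifs upstream of the +1 dyad were close to those elsewhere. In the 300 bp upstream of the dyad, searched on both strands and with overlaps between motifs allowed, TTACCC, the core of the Reb1 site, occurred in 19 of 113 members (16.8%) beside 19.1% of all ORF rows. TATAAA was found in 54 members (47.8%) beside 45.1%, and a run of AAAAAA or TTTTTT in 83 (73.5%) beside 73.1%. ACCCATACA, a core of the Rap1 site, was in 0 of 113, which allows a share of up to 2.65% (3 counts of 113; the Wilson upper bound is 3.29%), beside 0.729% of all ORF rows. A+T made up a median of 64% of the window in short and 64.33% in mid-length transcripts (difference -0.333 points, -1.04 to 0.375).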

How the data were processed

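The authors mapped reads of 1 in vivo MNase-seq library to SacCer3 with Bowtie, shifted read ends by 73 bp, smoothed dyad density and called peaks in order of height, removing values within 120 bp of each. The nearest dyad past a TSS was taken as +1 and the next upstream as −1. The deposited table holds these and transcript ends as coordinates in bp, with no counts. How the last dyad and second +1 columns were made is not given in the sources used here, and 6 coordinate columns were not used. All 7763 deposited restriction cut positions on nuclear chromosomes lay on their recognition sequences in RefSeq R64, which gave coding sequences, neighbours (by gene midpoint) and sequence. Of the members, 2 combined rows had no match by name.

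Medians have exact order-statistic intervals, shares Wilson intervals, differences Price-Bonett or Newcombe intervals (Python 3.11.15, numpy 2.4.6, scipy 1.17.1, pandas 2.3.3), checked on simulated data. Members and lists were chosen with earlier results of these data known. Genes were named by rule: the shortest, those next to the limit, 4 at each extreme of NDR length, +1 distance and room, 4 +1 dyads farthest past the start codon, and the ends of each list. Genes outside the rule, such as CWP2, IES4, YBL039W-B and the intron and 1-step genes, were named after their values were seen, and results on last dyads, introns, gaps and +1 cores were added after the files were examined.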

Additional observations from a re-analysis of the deposited data

How the results depend on the processing

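Of 104 alternative values for 17 results, 97 stayed within the 95% interval of the reported value and 7 moved out of it. Most of these concern quantities that the length rule or the assumed spacing bounds. With the limit at 700 bp (293 members) the median room was 556 bp, the median distance between +1 and last dyad 463 bp and the share of members with room for 3 or more further dyads 84.3%, against 62.8% at 600 bp. That share was 83.2% at a spacing of 150 bp, 7.08% at 180 bp and 1.77% where the whole core had to lie before the TTS. Counting only +1 dyads of other rows, the share of members with a called dyad before the TTS was 0%, against 17.7%. A limit of 500 bp could not be run because 0 ORF rows are that short.

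Some intervals that included 0 in the reported comparison did not under an alternative. At the limit of 700 bp the NDR difference was -13 bp (-20 to -6.03), and without cytosolic ribosomal protein genes the +1 difference was 5 bp (0.22 to 9.78). The intervals of the start codon differences lay above 0 under each alternative run, and the values were 21.7 and 17.4 points with the second +1 column. The depth of the in vivo library is unknown here, so no error of a single dyad can be given, and no replicate of it was analysed. No paired analysis was possible because the comparison is between transcripts of 1 library.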

Other observations

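The annotated coding sequence lay within the mapped span in 105 of 111 matched members. In SMA2 and YSP3 the coding sequences of 1110 and 1437 bp were longer than the whole span, and in SMA2 the start codon lay 464 bp past the TSS of a span of 505 bp, with most of the coding sequence beyond the TTS. In YOR011W-A, YLR408C and YNL122C the start codon lay 165, 23 and 13 bp upstream of the mapped TSS, and in VMA22 1 bp upstream. These rows stayed in every count above. Products annotated as uncharacterized made up 13 of 111 members (11.7%) and 88 of 2040 mid-length rows (4.31%), and their share over all ORF rows was not counted. No mating pheromone gene had a row in the table, of 4 in R64, and of 15 rows for glycolytic enzymes 0 were below 600 bp, the shortest measuring 865 bp.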
